A study of Mus musculus with 31 samples.

Results

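The cell cycle and DNA replication genes described here are 44 of the 27623 genes in a table of mouse colon RNA. They were taken by symbol from a list put together by known function, from the licensing of replication origins to the separation of daughter cells, and their measured values were not part of that rule. All 44 were in the table, and all 44 passed the filter on low values (at least 1 FPKM in at least 10 libraries) that left 12812 genes for testing. FPKM is the number of sequenced fragments scaled to gene length and library size.

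The study asked what the adaptor protein TRADD contributes to colitis in mice whose intestinal epithelial cells (IEC) lack the kinase TAK1. It holds 31 colon libraries taken 7 days after induction. DHO libraries (n = 10) carried TAK1 IEC-KO and Tradd IEC-KO, HO libraries (n = 10) carried TAK1 IEC-KO with Tradd intact, and WT libraries (n = 11) carried the floxed allele Tak1f/f without deletion. Every group, WT included, was also homozygous for Ripk1 D138N, an allele that encodes a RIPK1 without kinase activity. The driver of the epithelial deletion, the inducing agent and the animals' ages and sexes are not named by the sources used here. The RNA came from colon tissue, so it mixes epithelium with immune, stromal and muscle cells, and in such bulk tissue fewer cells of a type and less RNA per cell cannot be told apart.

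A dividing cell first loads the MCM helicase onto its replication origins with the help of CDC6, then activates it with CDC45 and the GINS complex and copies its DNA during S phase. Cyclins bound to cyclin-dependent kinases order these steps, and polo-like and aurora kinases, kinesin motors and the anaphase-promoting complex then carry the cell through mitosis. In the healthy colon nearly all dividing epithelial cells sit in the lower part of the crypts, from which the whole lining is renewed. Lymphoid follicles and, in inflamed tissue, other immune and stromal cells can divide as well.

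Many genes of these steps share short promoter elements, and the stretch of 150 bases before the annotated start is shown for 8 genes from the helicase, nucleotide supply, cyclin, mitotic kinase and spindle roles, chosen with their values known. They include Kif11 and Rrm2, with the highest log2 fold changes of the 44 in DHO against HO and in DHO against WT. The sequences are RefSeq's for the build GRCm38.p6, 5′ to 3′ on the strand of the gene. Capitals mark every match, on either strand, to 1 of 3 elements, and neighbouring matches can overlap. The E2F element was searched as TTCCCGC and also in the spelling TTGGCGC as well as in the spelling TTCGCGC. The cell cycle genes homology region, CHR for short, was searched as TTTGAA and likewise in the spelling TTTAAA, and the third element was the CCAAT box. The stretches lie at chr6:88898781-88898930 (minus strand) for Mcm2, chr1:128359706-128359855 (minus) for Mcm6, chr12:24708104-24708253 (plus) for Rrm2 and chr7:38107491-38107640 (minus) for Ccne1. Those of the mitotic genes lie at chr10:69352913-69353062 (minus) for Cdk1, chr13:100786487-100786636 (minus) for Ccnb1, chr7:122159285-122159434 (plus) for Plk1 and chr19:37376232-37376381 (plus) for Kif11.
Mcm2: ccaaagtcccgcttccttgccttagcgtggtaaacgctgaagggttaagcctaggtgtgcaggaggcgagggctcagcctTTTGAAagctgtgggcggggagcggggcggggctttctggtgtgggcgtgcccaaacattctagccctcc
Mcm6: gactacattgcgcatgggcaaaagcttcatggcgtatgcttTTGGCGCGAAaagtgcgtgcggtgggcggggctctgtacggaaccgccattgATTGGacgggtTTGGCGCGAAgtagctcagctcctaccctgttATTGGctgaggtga
Rrm2: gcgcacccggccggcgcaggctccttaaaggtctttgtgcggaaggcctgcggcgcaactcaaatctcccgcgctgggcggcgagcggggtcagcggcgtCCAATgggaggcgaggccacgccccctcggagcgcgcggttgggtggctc
Ccne1: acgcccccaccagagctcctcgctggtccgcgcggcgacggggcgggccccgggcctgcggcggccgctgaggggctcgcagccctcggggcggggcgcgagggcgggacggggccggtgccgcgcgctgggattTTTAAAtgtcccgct
Cdk1: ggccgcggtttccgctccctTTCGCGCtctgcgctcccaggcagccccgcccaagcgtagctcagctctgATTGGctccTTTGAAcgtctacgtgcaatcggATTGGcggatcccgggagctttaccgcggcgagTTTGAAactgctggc
Ccnb1: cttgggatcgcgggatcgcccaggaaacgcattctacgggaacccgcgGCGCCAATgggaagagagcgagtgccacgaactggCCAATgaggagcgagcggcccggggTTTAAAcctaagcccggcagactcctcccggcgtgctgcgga
Plk1: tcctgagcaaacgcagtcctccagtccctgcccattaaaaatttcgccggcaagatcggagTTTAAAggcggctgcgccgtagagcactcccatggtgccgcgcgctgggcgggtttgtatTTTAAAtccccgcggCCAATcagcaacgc
Kif11: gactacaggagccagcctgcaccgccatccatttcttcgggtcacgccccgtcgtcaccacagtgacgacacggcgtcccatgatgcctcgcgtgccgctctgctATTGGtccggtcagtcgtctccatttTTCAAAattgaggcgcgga
In these stretches Mcm6 had 4 E2F matches and no CHR match, whereas Plk1 and Cdk1 each had 2 CHR matches and Rrm2 had only a CCAAT box. Over the longer window of 250 bases before to 50 after the start, 35 of the 44 genes had an entry. No entry was found for Ccne2, Gins1, Aurkb, Tpx2, Mcm4, Kif20a, Pole, Gins2 and Ccna2. The E2F letters were in 11 of the 35 (31.4%), against 9.20% of all 27025 genes with a window. A CHR was in 24 of the 35 (68.6%), against 30.6% of all genes, and a CCAAT box in 29 (82.9%), against 41.1%. A match of letters is a description of the window and not a binding site.

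Some libraries stood apart before any comparison was made. The epithelial adhesion gene Epcam lay between 382 and 1011 FPKM in DHO, between 0.646 and 543 FPKM in HO and between 765 and 1033 FPKM in WT, and HO replicate 2, at 543 FPKM, was the only HO library above 103 FPKM. DHO replicates 8 and 9 had the lowest Epcam of their group (382 and 648 FPKM) and the most of the neutrophil gene S100a8 (1782 and 317 FPKM, with at most 11.2 FPKM in the other DHO libraries). Tradd lay at 1.36 to 3.89 FPKM in DHO, 12.4 to 59.2 FPKM in HO and 45.9 to 97.5 FPKM in WT, with only HO replicate 2 reaching into the WT range. Map3k7, which encodes TAK1, lay at 8.42 to 16.7 FPKM in DHO, 11.6 to 16.9 FPKM in HO and 8.29 to 13.6 FPKM in WT, and a whole-gene value in whole tissue does not check an epithelial deletion. The noncoding RNA Gm15564 split all 3 genotypes, with at most 0.0736 FPKM in 17 libraries (6 DHO, 5 HO, 6 WT) and 6.27 to 14.5 FPKM in the other 14, a division to which the labels give no name. In each genotype the libraries of low Gm15564 came first in the order of deposit. Tradd in WT followed this division, with 89.1 to 97.5 FPKM where Gm15564 was low and 45.9 to 54.1 FPKM where it was high. HO replicate 2 had low Gm15564, and its 59.2 FPKM of Tradd lay below every WT library of that class. The clock-controlled gene Dbp split WT at 10 FPKM: replicates 1, 2, 3 and 7 had 1.08 to 2.20 FPKM and the other 7 had 51.4 to 87.9 FPKM, while DHO lay at 0.355 to 2.87 FPKM and HO at 0.905 to 4.21 FPKM. Within DHO, at far lower values, replicates 1 to 5 had 1.52 to 2.87 FPKM and replicates 6 to 10 had 0.355 to 0.640 FPKM. The labels do not say that the libraries came from separate animals, and each p-value speaks only of the spread among libraries.

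In HO colon most of the cell cycle genes fell, in DHO colon all of them rose relative to HO, and most of them lay above WT. Between HO and WT, 33 of the 44 were lower, 0 were higher and 11 did not pass the test in limma at an adjusted p under 0.05, with 38.4% of all tested genes lower and 33.0% higher in the same comparison. At an unadjusted p under 0.05, limma likewise gave 0 higher genes. Their median log2 fold change was -0.78, against -0.06 over all tested genes. Between DHO and HO, 44 of 44 were higher, against 39.0% of all tested genes higher and 29.7% lower, with a median log2 fold change of 1.53 against 0.10 for all genes. Between DHO and WT, 33 were higher, 0 lower and 11 not past the threshold, against 12.5% of all tested genes higher and 8.70% lower, with a median of 0.79 against 0.02. At an unadjusted p under 0.05, 40 were higher and 0 lower in DHO. Counts at an unadjusted p, here and elsewhere, were not made over all tested genes and have no such share beside them. Against only the 4 WT libraries of low Dbp, 0 of the 44 passed in DHO (limma, with 2 higher at an unadjusted p under 0.05). The comparisons share libraries, so the 3 sets of values are not independent. Fold changes are on the scale of log2(FPKM + 0.5), which understates the change of low genes.

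**Figure D1:**
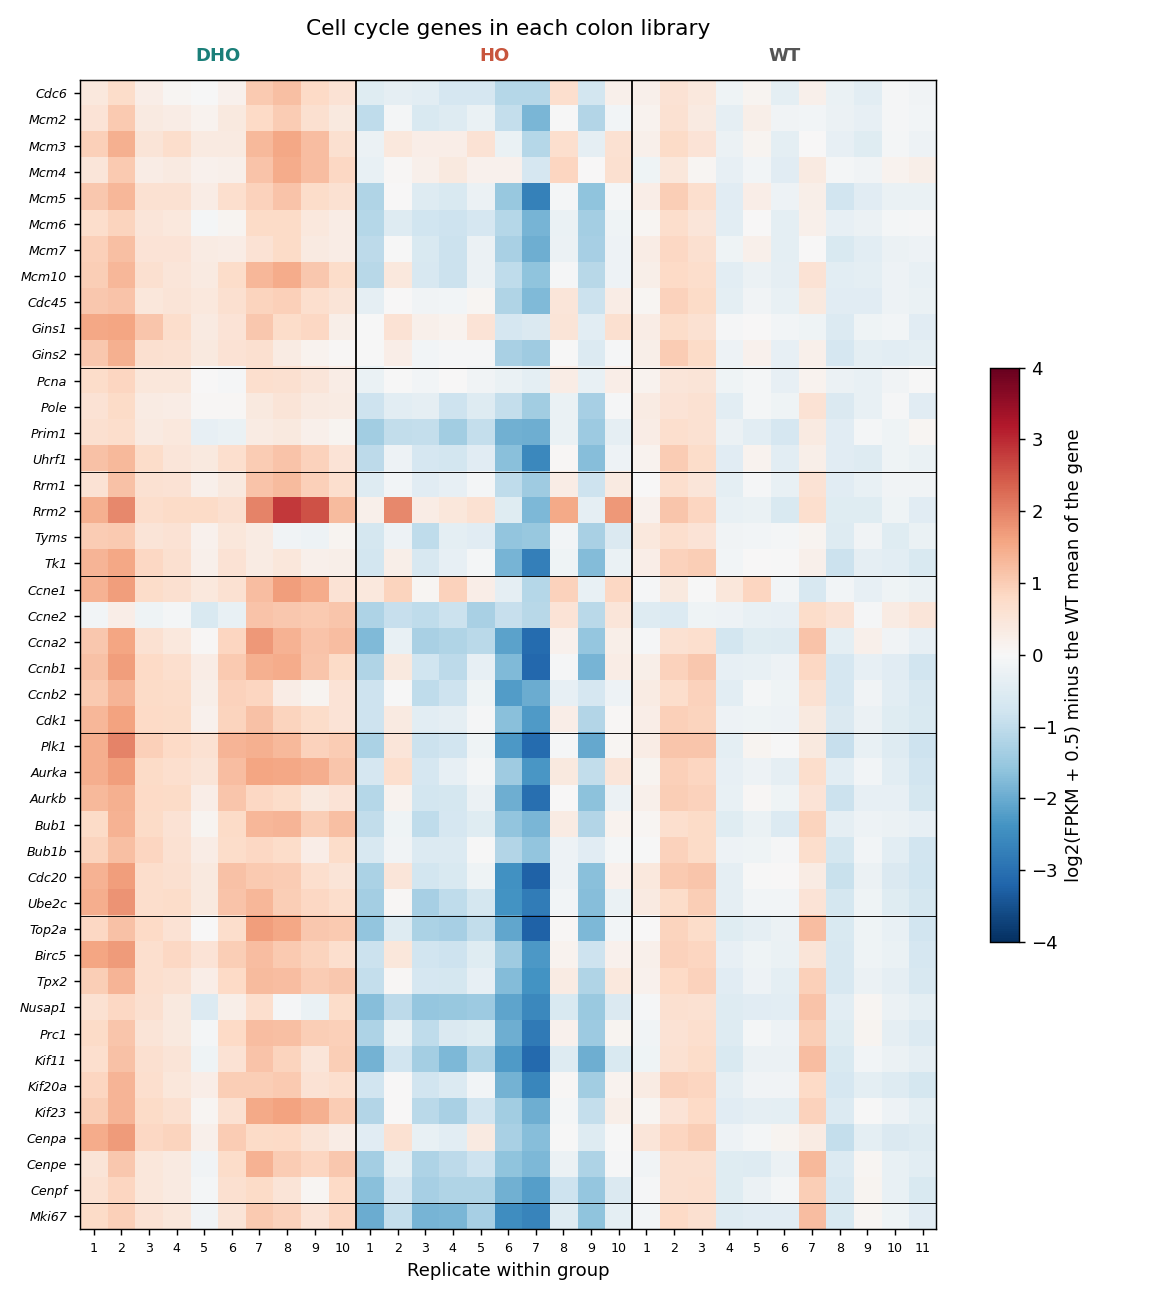
Each row is 1 of the 44 genes, ordered by role, and each column 1 library of DHO, HO or WT (replicate number below), with colour for log2(FPKM + 0.5) minus the WT mean of the gene. The DHO columns are mostly red, the mean over the genes running from 0.17 to 1.28, and the HO columns run from a near-white replicate 8 at 0.08 to a dark blue replicate 7 at -2.05.

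Mki67, the proliferation antigen that coats mitotic chromosomes and is used in pathology to count cycling cells, had the lowest log2 fold change of the 44 in HO. Its lowest, median and highest values were 17.1, 30.6 and 39.9 FPKM in DHO, 2.60, 5.42 and 14.4 FPKM in HO, and 12.3, 16.8 and 45.0 FPKM in WT. Every DHO library was above every HO library, and only HO replicates 8 and 10, at 12.9 and 14.4 FPKM, reached the bottom of the WT range. The log2 fold change was -1.56 ± 0.25 (SE) for HO against WT (limma, adjusted p = 2.39e-06) and 2.21 ± 0.26 for DHO against HO (adjusted p = 9.01e-09). For DHO against WT it was 0.65 ± 0.25 and did not pass the threshold (limma, adjusted p = 0.0645).

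Of the 11 genes of helicase loading and activation, 6 fell in HO against WT, 11 rose in DHO against HO and 10 rose in DHO against WT, with medians of -0.48, 1.09 and 0.72 on the log2 scale. Over all tested genes the shares in these directions were 38.4%, 39.0% and 12.5%. Mcm2 to Mcm7 encode the equal partners of the helicase ring, and their transcripts did not all pass the test in HO. Mcm6 had the lowest log2 fold change of the role in HO: its values ran from 17.9 over a median of 26.03 to 34.9 FPKM in DHO, from 4.82 over 10.5 to 16.7 FPKM in HO and from 13.9 over 18.3 to 30.9 FPKM in WT. All DHO libraries exceeded all HO libraries, and HO overlapped WT only in its upper part. The differences were -0.87 ± 0.17 (SE) for HO against WT (limma, adjusted p = 3.81e-05), 1.35 ± 0.18 for DHO against HO (adjusted p = 5.52e-08) and 0.48 ± 0.17 for DHO against WT (adjusted p = 0.0444).

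Mcm5 behaved in the same direction, with 17.1, 22.7 and 35.6 FPKM (lowest, median, highest) in DHO, 1.70, 9.21 and 14.1 FPKM in HO and 7.92, 11.9 and 27.9 FPKM in WT. DHO and HO did not overlap, and the 1.70 FPKM of HO replicate 7 was far under the lowest WT value. Its log2 fold change in DHO against HO, 1.65 ± 0.27 (limma, adjusted p = 2.51e-06), was the highest of the role. Mcm2 and Mcm7 also fell in HO (-0.65 ± 0.18 and -0.78 ± 0.20) and rose in DHO against HO (1.22 ± 0.18 and 1.37 ± 0.21) without overlap between DHO and HO.

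Mcm3 and Mcm4 did not follow in HO. Mcm3 had a lowest, median and highest value of 17.02, 23.9 and 39.4 FPKM in DHO, 5.67, 15.8 and 21.3 FPKM in HO and 9.20, 12.5 and 22.5 FPKM in WT. HO spanned nearly the whole WT range, with a log2 difference of 0.08 ± 0.20 (limma, adjusted p = 0.750), and Mcm4 gave 0.15 ± 0.17 (adjusted p = 0.449). Both rose in DHO, by 0.83 ± 0.21 and 0.57 ± 0.18 against HO and by 0.91 ± 0.20 and 0.72 ± 0.17 against WT. The helicase activators were split in the same way. Mcm10, which helps start the activated helicase, fell in HO (-0.64 ± 0.21), whereas Cdc45 (-0.36 ± 0.22), Gins1 (0.10 ± 0.19) and Gins2 (-0.32 ± 0.22) did not pass the threshold. Cdc6, the MCM loader, stood at only 2.24 FPKM (median) in DHO, 0.815 FPKM in HO and 1.38 FPKM in WT, and fell in HO by 0.48 on the log2 scale.

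The 4 genes of DNA synthesis and of copying the methylation pattern had log2 fold changes from -1.16 to -0.09 in HO against WT. Prim1, the catalytic subunit of primase, which lays down the RNA primers, had 8.58, 14.1 and 18.3 FPKM (lowest, median, highest) in DHO, 2.50, 4.57 and 9.05 FPKM in HO and 6.75, 10.5 and 17.8 FPKM in WT. Most HO libraries were below all WT libraries, while DHO and WT overlapped over most of their ranges. Prim1 fell by 1.16 ± 0.20 in HO (limma, adjusted p = 4.44e-06), and its DHO against WT difference of 0.25 ± 0.20 was not past the threshold (adjusted p = 0.368). Pcna, the sliding clamp of the polymerases and the most abundant transcript of the list at a median of 131 FPKM in DHO, 86.4 FPKM in HO and 89.7 FPKM in WT, did not pass the threshold in HO (-0.09 ± 0.12, limma, adjusted p = 0.498). Pole, the catalytic subunit of DNA polymerase epsilon, and Uhrf1, which guides the maintenance methyltransferase to newly copied DNA, both fell in HO (-0.69 ± 0.17 and -0.92 ± 0.25). All DHO libraries were above all HO libraries for both.

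Among the 4 genes that supply deoxynucleotides, Rrm2 stood out. It encodes the small, S-phase-limited subunit of ribonucleotide reductase. Its lowest, median and highest values were 13.4, 22.1 and 63.1 FPKM in DHO, 2.07, 11.1 and 33.1 FPKM in HO and 5.28, 6.88 and 18.8 FPKM in WT. The groups overlapped, and the highest DHO libraries were replicates 8 and 9. The difference between HO and WT was 0.41 ± 0.36 (SE) and not past the threshold (limma, adjusted p = 0.319), while that between DHO and WT, 1.48 ± 0.36 (adjusted p = 0.00609), had the highest value of the 44 genes. Tyms and Tk1, which make thymidylate, fell in HO (-0.79 ± 0.19 and -0.83 ± 0.29), and Rrm1, the large subunit, missed the threshold (-0.41 ± 0.19, limma, adjusted p = 0.0556).

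The E-type cyclins act at entry into S phase. Ccne1 had 4.42, 6.95 and 11.4 FPKM (lowest, median, highest) in DHO, 1.16, 4.16 and 6.56 FPKM in HO and 1.86, 2.95 and 6.14 FPKM in WT. HO covered the whole WT range and went beyond it at both ends. Ccne1 gave 0.25 ± 0.23 for HO against WT (limma, adjusted p = 0.329) and rose by 1.04 ± 0.23 in DHO against WT (adjusted p = 0.00306). Ccne2 fell in HO (-0.74 ± 0.26) and did not pass the threshold in DHO against WT (0.33 ± 0.26, limma, adjusted p = 0.371).

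The S-phase and mitotic cyclins all fell in HO, with log2 fold changes of -1.20 ± 0.31 for Ccna2, -0.95 ± 0.33 for Ccnb1 and -0.83 ± 0.25 for Ccnb2. Ccnb1, the cyclin B that drives entry into mitosis, had 14.1, 24.4 and 37.1 FPKM (lowest, median, highest) in DHO, 0.841, 5.78 and 14.9 FPKM in HO and 6.43, 9.12 and 24.7 FPKM in WT. Only the highest HO library lay above the lowest DHO library. Ccnb1 rose by 1.99 ± 0.33 in DHO against HO (limma, adjusted p = 4.13e-06) and by 1.04 ± 0.33 against WT (adjusted p = 0.0231). Its partner kinase Cdk1 moved the same way by smaller amounts, with -0.62 ± 0.27 in HO against WT, 1.51 ± 0.27 in DHO against HO and 0.89 ± 0.27 in DHO against WT.

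Of the 7 mitotic kinases, checkpoint proteins and ubiquitin ligase factors, 6 fell in HO, 7 rose in DHO against HO and 6 rose in DHO against WT, with medians of -0.95, 1.77 and 0.92. All tested genes did so in 38.4%, 39.0% and 12.5% of cases. Plk1, a kinase that acts from mitotic entry to cytokinesis, had 17.7, 26.5 and 47.1 FPKM (lowest, median, highest) in DHO, 0.939, 6.42 and 16.5 FPKM in HO and 5.88, 11.5 and 25.5 FPKM in WT. DHO lay wholly above HO, and 47.1 FPKM in DHO replicate 2 stood well clear of the next DHO library at 32.3 FPKM. The log2 differences were -0.99 ± 0.34 for HO against WT (limma, adjusted p = 0.0102), 2.17 ± 0.35 for DHO against HO (adjusted p = 2.06e-06) and 1.18 ± 0.34 for DHO against WT (adjusted p = 0.0150). Ube2c, the ubiquitin-conjugating enzyme of the anaphase-promoting complex, likewise gave -1.17 ± 0.29 and 2.17 ± 0.29 in the first 2 of these comparisons. The centrosomal kinase Aurka was the only one of the 7 that did not pass in HO (-0.49 ± 0.28, limma, adjusted p = 0.118). Cdc20, an activator of the same complex, was the only one not past the threshold in DHO against WT (0.92 ± 0.34, limma, adjusted p = 0.0527).

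Of the 11 genes that shape chromosomes, spindle, kinetochore and midzone, 10 fell in HO, 11 rose in DHO against HO and 8 rose in DHO against WT, with medians of -0.95, 1.74 and 0.79. The shares over all tested genes were 38.4%, 39.0% and 12.5%. Kif11, the kinesin that pushes the spindle poles apart, had 6.60, 12.1 and 17.3 FPKM (lowest, median, highest) in DHO, 0.416, 2.22 and 5.03 FPKM in HO and 4.68, 6.32 and 18.1 FPKM in WT. DHO and HO did not overlap, and only the top HO libraries reached the lowest WT values. Kif11 fell by 1.55 ± 0.26 in HO (limma, adjusted p = 4.62e-06), and its 2.24 ± 0.27 in DHO against HO (adjusted p = 1.32e-08) was the highest of the 44 genes. In DHO against WT it gave 0.69 ± 0.26 (limma, adjusted p = 0.0577).

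Nusap1, a microtubule bundling protein of the spindle, was the only one of the 44 for which all HO libraries were below all WT libraries, a separation that 15.9% of all tested genes showed. Its values were 6.03, 12.9 and 16.4 FPKM (lowest, median, highest) in DHO, 1.09, 2.85 and 5.80 FPKM in HO and 6.14, 7.55 and 20.5 FPKM in WT. The gap between HO and WT was narrow, and DHO overlapped WT over nearly its whole range. The HO against WT difference was -1.46 ± 0.23 (limma, adjusted p = 1.74e-06). Cenpf, a large protein of the outer kinetochore, and Top2a, the topoisomerase that untangles sister chromatids, also had log2 fold changes below -1.2 in HO, at -1.31 ± 0.20 and -1.29 ± 0.31. Cenpa, the histone H3 variant that marks centromeres, was the one gene of this role that did not pass (-0.38 ± 0.25, limma, adjusted p = 0.185). In DHO against HO, 17 of the 44 genes had every DHO library above every HO library, against 7.27% of all tested genes. Of the 17, 4 belonged to helicase loading (Mcm2, Mcm5, Mcm6, Mcm7), 2 to DNA synthesis (Pole, Uhrf1), 1 to the cyclins (Ccnb2), 4 to the kinase and checkpoint role, 5 to the spindle role, and the last was Mki67.

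**Figure D2:**
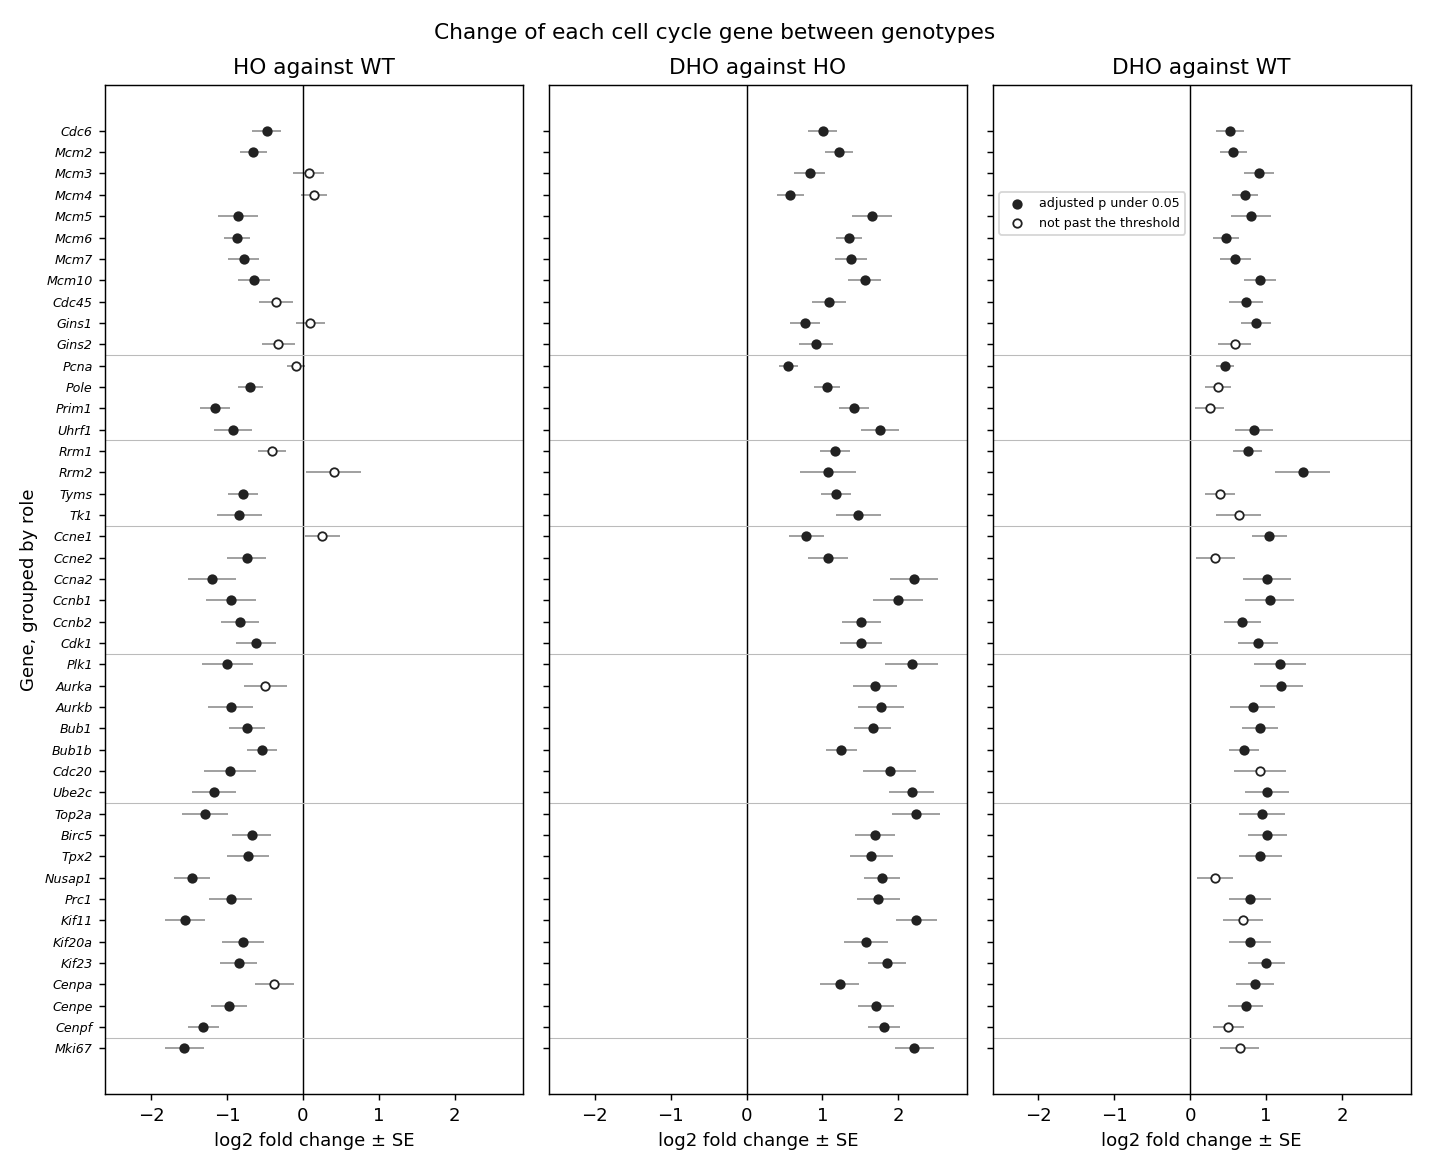
Points show the log2 fold change of each of the 44 genes with its standard error in the 3 comparisons, filled where the adjusted p was under 0.05, and lines separate the roles. In HO against WT the open points near 0 belong mainly to replication genes such as Mcm3 (0.08), Gins1 (0.10) and Rrm2 (0.41), and in DHO against HO all points lie between 0.55 and 2.24.

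Read by library, the HO group was the least uniform. The mean over the 44 genes, as log2 relative to the WT mean of each gene, ran from 0.17 (replicate 5) to 1.28 (replicate 2) in DHO, from -2.05 (replicate 7) to 0.08 (replicate 8) in HO and from -0.52 to 0.74 in WT. HO replicate 7 had all 44 genes below the lowest WT library, and replicates 6, 9 and 1 had 39, 35 and 32. In HO replicates 8 and 10 only 2 genes each were below the lowest WT library, although Epcam was at 76.6 and 103 FPKM there. HO replicate 2, with 543 FPKM of Epcam, had 7 such genes, and its Mki67 of 9.60 FPKM was among them. In DHO, 37 genes in replicate 2 and 26 in each of replicates 1, 7 and 8 exceeded the highest WT library, and 0 did in replicates 4 and 5. The same counts were not made over all tested genes. How far these libraries left the WT range beyond genes in general is therefore not known.

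Within HO, the libraries with more Epcam had more of the cell cycle transcripts. Over the 10 HO libraries, log2 Mki67 and log2 Epcam gave Pearson's r = 0.784 (permutation test, two-sided, adjusted p = 0.0265 over 6 relations, raw p = 0.00884) and Spearman's rho = 0.758 (permutation adjusted p = 0.0436, raw p = 0.0145). Mcm2 gave r = 0.875 (permutation adjusted p = 0.00180, raw p = 0.000300) and rho = 0.915 (permutation adjusted p = 0.00264, raw p = 0.000440). Without the 2 libraries farthest from the median Epcam, r was 0.761 for Mki67 and 0.866 for Mcm2. In DHO the same relations gave r = -0.223 for Mki67 and -0.478 for Mcm2 (permutation adjusted p = 0.573 and 0.305), and in WT 0.227 and 0.555 (permutation adjusted p = 0.573 and 0.187), where Epcam varied little. The difference between the groups' relations was not tested.

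**Figure D3:**
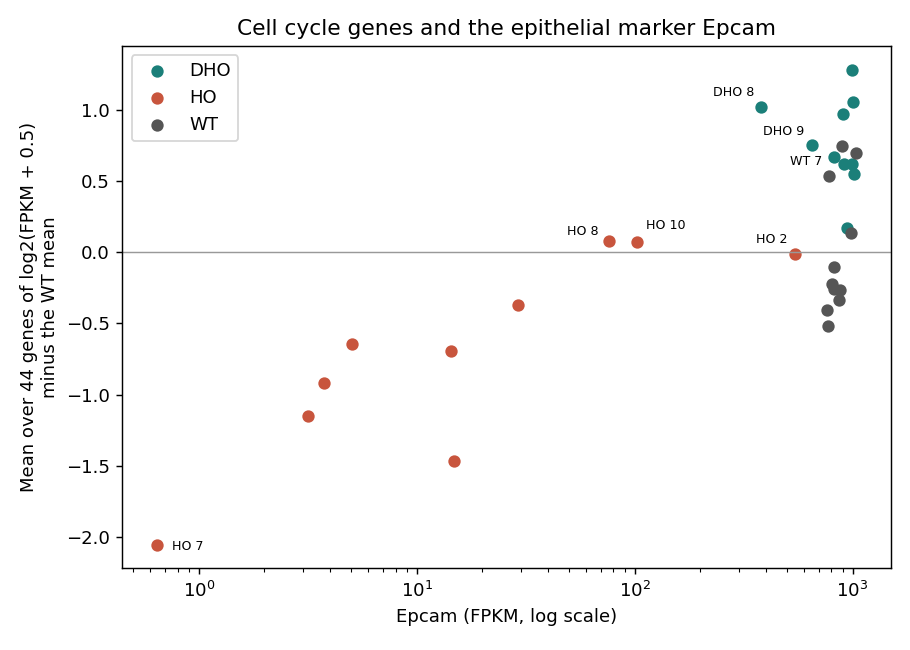
Each point is 1 library, with Epcam on a log axis (FPKM) and the mean over the 44 genes of log2(FPKM + 0.5) minus the WT mean on the vertical axis, coloured by genotype. HO libraries climb from replicate 7 at 0.646 FPKM of Epcam and -2.05 to replicates 8, 10 and 2 near 0, while DHO (0.17 to 1.28) and WT (-0.52 to 0.74) gather at high Epcam.

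The 44 genes varied together within each genotype. Over the 946 gene pairs the median Pearson correlation of log2 values was 0.694 across DHO, 0.906 across HO and 0.855 across WT, given as a description since all pairs share the same libraries. The E-type cyclins were the exception in WT, with median correlations with the other genes of 0.02 for Ccne1 and -0.28 for Ccne2.

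Marker genes of other cells moved with the genotypes. Over all tested genes, 33.0% were higher and 38.4% lower in HO against WT, and 39.0% higher and 29.7% lower in DHO against HO. For DHO against WT the shares were 12.5% and 8.70%. In HO against WT, 14 of 14 epithelial markers were lower (median log2 fold change -5.44) and their summed level was 5599 to 12089.5 FPKM in DHO, 14.9 to 8485 FPKM in HO and 8280.1 to 11026 FPKM in WT. Of 12 stem cell and crypt base markers, 9 were lower and 2 higher in HO against WT (median log2 fold change -2.16), 8 were higher and 2 lower in DHO against HO, and their summed level was 78.5 to 113 FPKM in DHO, 85.5 to 168 FPKM in HO and 77.2 to 116 FPKM in WT. The stem cell gene Lgr5 lay at 0.530 to 2.70 FPKM in DHO, 0 to 0.196 FPKM in HO and 1.49 to 3.15 FPKM in WT, while Olfm4 of the same list went the other way, with a median of 0.0202 FPKM in DHO, 19.9 FPKM in HO and 0 FPKM in WT. Olfm4 reached at most 0.137 FPKM in WT, so it was no marker of the crypt base there. Which cells carried it in HO was not tested. All 10 neutrophil markers and all 10 macrophage markers were higher in HO, as were 7 of 8 fibroblast and 7 of 8 endothelial markers, and 8 of 8 smooth muscle markers were lower. The neutrophil list summed to only 0.951 to 9.94 FPKM in WT, against 6234 to 51081 FPKM in HO. Its genes passed the filter on low values largely through HO, so their count is a description only. Of 9 genes of neutrophil precursors, which still divide in the bone marrow, 4 could be tested and all 4 were higher in HO, with a summed level over the list of 0.338 to 99.1 FPKM in DHO, 611 to 4163 FPKM in HO and 0.123 to 1.21 FPKM in WT. With sums that low in WT, these 4 passed the filter on low values mainly through HO. Their direction against WT was thus fixed in advance and is no test. The precursor-defining genes Elane and Mpo had medians of only 1.51 and 0.546 FPKM in HO and of 0 FPKM in WT. Of 8 germinal centre markers 3 could be tested and all 3 were higher in HO. The defining gene Mef2b had a median of 0 FPKM in all 3 genotypes, WT included. Of 8 B cell markers 1 passed, in the lower direction. In DHO against HO the epithelial list was higher (14 of 14) and the neutrophil and macrophage lists lower (10 of 10 each). In DHO against WT the epithelial list had a median of 0.02, while 7 of 10 macrophage markers and 2 of 10 neutrophil markers were higher and 7 of 8 smooth muscle markers lower. Without DHO replicates 8 and 9, 2 macrophage markers were higher, 0 neutrophil markers were higher and 0 smooth muscle markers lower (limma, with 7, 2 and 6 at an unadjusted p under 0.05). Against only the 4 WT libraries of low Dbp, 0 genes of these 3 lists passed (limma, with 4, 0 and 1 at an unadjusted p under 0.05). The part of these cell types in the changes of the 44 genes was not tested.

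The difference between DHO and WT turned on which WT libraries were used. In 29 of the 44 genes all 4 WT libraries with low Dbp were above all 7 others, a separation that 3.05% of all tested genes showed in this direction and 1.29% in the opposite one. The median of the 4 was above that of the 7 in 43 genes, Ccne2 being the exception. Ccnb1 lay at 13.5 to 24.7 FPKM in the 4 and at 6.43 to 9.83 FPKM in the 7, and Tpx2, a spindle assembly factor that activates Aurora A, at 8.12 to 14.3 FPKM in the 4 and at 4.40 to 6.07 FPKM in the 7. The DHO median was above the highest of the 7 in 43 genes and above the median of the 4 in 34. These counts of medians were not made over all tested genes, so how they stand beside genes in general is not known. Epcam did not separate these WT libraries to the same degree, with 781 to 1033 FPKM in the 4 and 765 to 881 FPKM in the 7. The clock gene Arntl lay at 3.74 to 4.25 FPKM in the 4 and 0.723 to 1.59 FPKM in the 7, and the labels give no time of collection. Arntl was at 1.77 to 4.19 FPKM in DHO and at 0.732 to 1.25 FPKM in HO. HO thus lay near the 4 by Dbp but inside the range of the 7 by Arntl.

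When only the 4 WT libraries with low Dbp were kept, a choice made after seeing the data, 0 of the 44 genes were higher or lower in DHO (limma, smallest adjusted p = 0.182), with 2 higher and 0 lower at an unadjusted p under 0.05. All tested genes were then called in 0.0781% (higher) and 0.0702% (lower) of cases. The median log2 fold change of the 44 was 0.21, from -0.27 for Nusap1 to 1.12 for Ccne1, and 39 were still above 0. Against the same 4 WT libraries 38 of the 44 fell in HO, with a median of -1.32 and 34.3% of all tested genes lower. By Arntl these 4 were not a matched reference for HO.

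**Figure D4:**
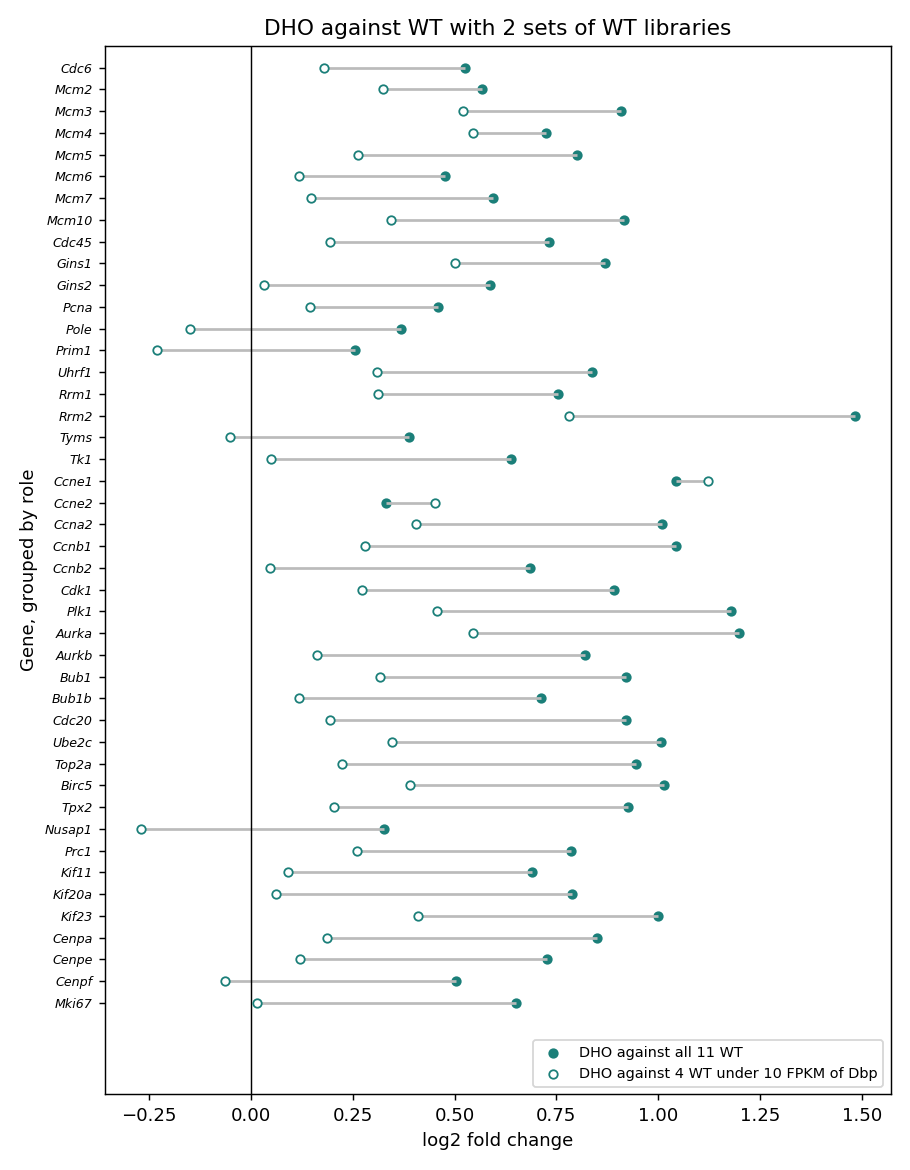
For each of the 44 genes the filled point is the log2 fold change of DHO against all 11 WT libraries and the open point that against the 4 WT libraries under 10 FPKM of Dbp. Open points lie left of filled ones except for Ccne1 and Ccne2, with a median of 0.21 against 0.79.

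**Figure D5:**
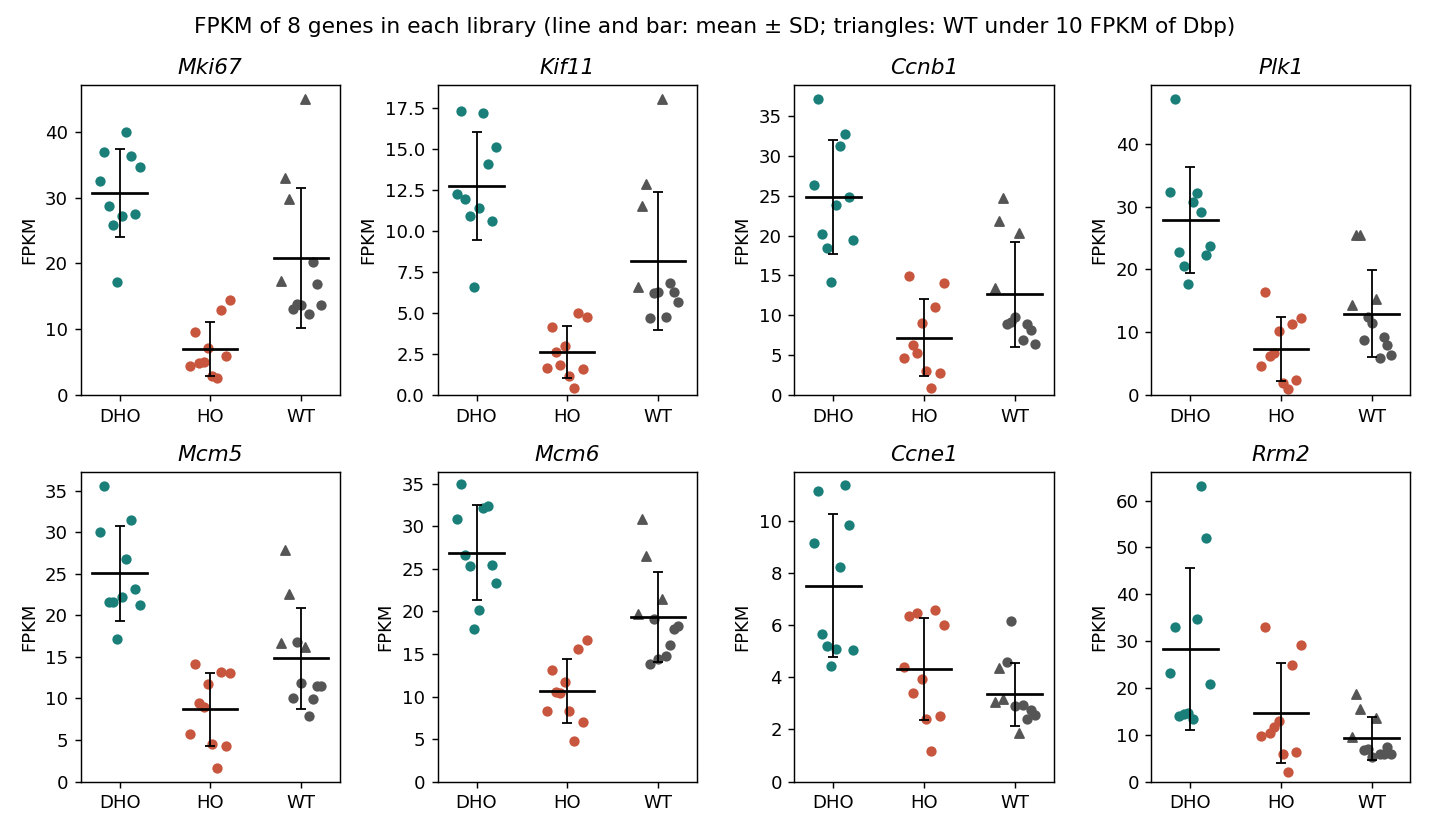
FPKM of 8 genes in each DHO, HO and WT library, with lines and bars for mean and SD and triangles for the 4 WT libraries under 10 FPKM of Dbp. The upper WT points of Mki67, Kif11, Ccnb1 and Plk1 are triangles, up to 45.0, 18.1, 24.7 and 25.5 FPKM, and for Ccne1 the highest WT point of 6.14 FPKM is not.

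The other divisions of the libraries were followed in the same way. Within the libraries under 1 FPKM of Gm15564, 31 genes fell in HO against WT (36.5% of all tested genes) and 40 rose in DHO against HO (38.2%). Within those over 1 FPKM the counts were 13 (36.3%) and 44 (33.5%). The medians were -0.72 and -0.77 for HO against WT and 1.26 and 1.80 for DHO against HO. For DHO against WT the medians were 0.55 and 1.07 and the counts 0 (limma, smallest adjusted p = 0.151, with 30 higher and 0 lower at an unadjusted p under 0.05) and 16, with 0.375% and 21.1% of all tested genes higher. An interaction with this division passed for 0 of the 44 genes in any comparison (limma, smallest adjusted p of 1, 0.0975 and 0.127 for HO against WT, DHO against WT and DHO against HO, with 0, 4 and 3 genes at an unadjusted p under 0.05). The Gm15564 division ran partly along the others. Of the WT libraries of low Dbp, replicates 1, 2 and 3 were under 1 FPKM of Gm15564 and replicate 7 was over it. DHO replicates 8 and 9 were both over it, so the parts of these divisions in DHO against WT cannot be told apart. Without DHO replicates 8 and 9, 43 genes rose in DHO against HO (39.9% of all tested genes) and 18 in DHO against WT (6.18%). Without HO replicate 2, 35 genes fell in HO against WT, with 38.8% of all tested genes. Median-of-ratios scaling gave 34 higher genes in DHO against WT, with all tested genes at 10.8% higher and 11.5% lower in place of 12.5% and 8.70%, and quantile normalization gave 36 (11.9% and 10.9%).

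Other genes of the same pathways were read from lists drawn up by function, beside 33.0% of all tested genes higher and 38.4% lower in HO against WT, 39.0% higher in DHO against HO and 12.5% higher in DHO against WT. Of 28 further mitosis genes, 22 fell and 1 rose in HO against WT (median -0.76), 26 rose in DHO against HO (1.42), and 14 rose and 1 fell in DHO against WT (0.68). Hmmr, a spindle protein, averaged 8.16 ± 2.01 FPKM in DHO, 1.64 ± 1.27 FPKM in HO and 5.36 ± 2.89 FPKM in WT (SD, n = 10, 10 and 11), and fell by 1.54 ± 0.27 in HO. The one that rose in HO was Cks1b, a small partner of cyclin-dependent kinases (0.73 ± 0.23, limma, adjusted p = 0.00565). The one that fell in DHO against WT was Wee1, the kinase that holds Cdk1 inactive (-0.67 ± 0.14, limma, adjusted p = 0.00265).

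Of 26 further genes of origin licensing and the replisome, 4 rose and 9 fell in HO against WT (median -0.20), while 20 rose in DHO against HO (0.78) and 19 in DHO against WT (0.45). Pola1, the catalytic subunit of polymerase alpha, fell by 1.32 ± 0.19 in HO, whereas Pola2 and Prim2, the accessory subunits of the same complex, rose (0.41 ± 0.11 and 0.47 ± 0.15). Orc1, the origin subunit that is made in late G1, fell by 1.15 ± 0.20, and Orc2 rose (0.59 ± 0.12). Of 11 tested genes of replication stress and repair, 10 fell in HO (median -0.60), 11 rose in DHO against HO (1.13) and 8 in DHO against WT (0.62), among them the nuclease Exo1 (0.66 ± 0.17 in DHO against WT). Only 16 of 56 replication-dependent histone genes passed the filter on low values. Of these 13 fell in HO (median -1.11) and 11 rose in DHO against HO (0.97), while 1 fell in DHO against WT, where their median was -0.17. Replication-dependent histone mRNAs lack poly(A) tails, and the kit's selection step is not named by the sources used here.

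Regulators upstream of these genes did not move as a block. The cyclin D genes, which couple growth signals to G1, moved apart in HO: Ccnd2 averaged 40.3 ± 9.09 FPKM in DHO, 10.4 ± 2.58 FPKM in HO and 40.9 ± 6.70 FPKM in WT (SD, n = 10, 10 and 11). It fell by 1.95 ± 0.13 in HO (limma, adjusted p = 2.95e-14). Ccnd1 also fell (-0.83 ± 0.23), whereas Ccnd3 averaged 34.8 ± 6.67 FPKM in DHO, 67.3 ± 11.7 FPKM in HO and 29.5 ± 7.99 FPKM in WT and rose by 1.21 ± 0.14 in HO. Of 9 tested inhibitors and pocket proteins, 2 rose and 2 fell in HO, and in DHO against WT their median was 0.03. Cdkn2b, a CDK4 and CDK6 inhibitor, averaged 23.8 ± 14.5 FPKM in DHO, 1.42 ± 2.32 FPKM in HO and 33.5 ± 9.82 FPKM in WT, and its relative Cdkn2d averaged 8.97 ± 2.52 FPKM in DHO, 29.7 ± 13.1 FPKM in HO and 8.79 ± 2.88 FPKM in WT. They changed in opposite directions in HO, by -4.57 ± 0.43 and 1.66 ± 0.21. Of 11 tested E2F, DREAM, FOXM1 and MYC factors, 2 rose (E2f1 and E2f4) and 4 fell in HO, 8 rose in DHO against HO, and 8 rose and 1 fell in DHO against WT. The one that fell was Mycn, a relative of Myc (-0.77 ± 0.15, limma, adjusted p = 0.00132). E2f1, an activator of S-phase genes, rose by 0.75 ± 0.20 in HO (limma, adjusted p = 0.00111), and E2f8, a repressor that peaks late in S phase, fell by 1.27 ± 0.23. Without DHO replicates 8 and 9, the genes higher in DHO against WT were 6 of 28 in the mitosis list, 10 of 26 in the origin and replisome list and 3 of 11 in the repair list, and the histone median was 0.11. With only the 4 WT libraries of low Dbp, 0 genes of any of these 7 lists passed in DHO against WT. At an unadjusted p under 0.05 limma then gave 3 in the E2F list, 3 in the histone list, 1 among the G1 cyclins and their kinases and 0 in the other 4.

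Fold changes were also read by promoter element over the 35 genes with a window, as a description. The 24 genes with a CHR had a median of 1.70 in DHO against HO and the 11 without had 1.35. In DHO against WT the medians were 0.84 with and 0.53 without, and in HO against WT -0.85 and -0.74. The 11 genes with an E2F match had medians of 1.42 in DHO against HO and -0.85 in HO against WT, and the 24 without had 1.67 and -0.81. Of the 8 genes whose sequences are shown, the 6 with a CHR there gave 2.24 (Kif11), 2.17 (Plk1), 1.99 (Ccnb1), 1.51 (Cdk1), 1.22 (Mcm2) and 0.79 (Ccne1) in DHO against HO. The 2 without one in the shorter stretch, Mcm6 and Rrm2, gave 1.35 and 1.07, inside that range. Rrm2 had a CHR match in the longer window and so counts among the 24 above.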

How the data were processed

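Total RNA of mouse colon was sequenced in 31 libraries. Per the submitters' processing notes, fastp, HISAT2, HTSeq and the build mm10 were used, and no source used here names their versions or gene models. The authors deposited FPKM values, a unit read from the values and the tools named, with 27623 genes and no counts, so no counting interval is given. From low values that repeat in fixed steps, depth relative to DHO replicate 1 was 0.840 to 1.02 in DHO, 0.798 to 1.05 in HO and 0.864 to 1.03 in WT. No pair of libraries had identical values.

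The test was limma 3.58.1 (R 4.3.3), run with a variance trend and robust moderation on log2(FPKM + 0.5) of the 12812 genes that reached 1 FPKM in 10 or more libraries, all genotypes in 1 model. Two-sided p-values received the Benjamini-Hochberg adjustment within each comparison, and the script was tested on simulated data. Permutation tests used SciPy 1.17.1 with 100000 resamples. Genes of the other pathway lists were named from the up to 3 with the smallest p past the threshold in each direction and comparison, and Dbp, Arntl and Gm15564 were singled out after their values were seen. Replicate numbers follow the order of deposit, and in each genotype the libraries under 1 FPKM of Gm15564 came before those over it. The labels give these numbers no further meaning. Histone genes were found by current symbols in place of the older ones first listed. The 44 genes, the lists, the alternatives and the divisions by Dbp and Gm15564 were chosen with earlier results of these data known. Alternatives covered the added FPKM, filter, scaling, model, libraries left out and both divisions.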

Additional observations from a re-analysis of the deposited data

Results flagged for a closer look

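Plk1 in DHO replicate 2 was far from the other DHO libraries, at 47.1 FPKM against 17.7 to 32.3 FPKM in the other DHO libraries. Its gap to the nearest of them was 0.504 of the group's range, above Dixon's 95% critical value of 0.466 for 10 libraries. It was the only one of 88 groups tested (44 genes in DHO and in HO) past that value, and chance flags about 1 group in 20. WT, with 11 libraries, was not tested in this way.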

How the results depend on the processing

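Every direction of the 44 genes in DHO against HO held under the alternatives, with 40 to 44 genes higher (35 of 35 under the stricter filter) and 44 to 44 when each library was left out in turn. In HO against WT the count of lower genes was 29 to 35 with each library left out, 13 in the libraries over 1 FPKM of Gm15564 alone and 26 of 35 under the stricter filter, and the count of higher genes was 0 throughout. In DHO against WT the count of higher genes was 18 without DHO replicates 8 and 9, 0 in the libraries under 1 FPKM of Gm15564 alone, 16 in those over 1 FPKM alone, 0 with only the 4 WT libraries of low Dbp, and 22 (without DHO replicate 8) to 38 with each library left out. It was 24 without a filter, where 4.64% of the 27623 genes tested were higher. The count of lower genes in DHO against WT was 0 throughout. Under the stricter filter, 41.6% of all genes tested were higher in DHO against HO and 39.3% were lower in HO against WT. The divided sets hold fewer libraries, and other causes were not tested.

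Directions changed for genes that had not passed the threshold. Pcna gave 0.0247 in HO against WT in the libraries over 1 FPKM of Gm15564. With only the 4 WT libraries of low Dbp, Mcm3 gave -0.31, Mcm4 -0.0295, Gins1 -0.27 and Rrm2 -0.29 in HO against WT, and Pole -0.15, Prim1 -0.23, Tyms -0.0522, Nusap1 -0.27 and Cenpf -0.0622 in DHO against WT. No paired analysis was possible because the labels carry no replicate numbers that genotypes share. Depth is unknown in counts and limits genes near 1 FPKM most.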
